A study of Rattus norvegicus with 18 samples.

Results

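Cgref1, Wfdc1, Gpx7, Crabp2 and Nupr1 were low or near background in intact bone of adult and older rats and were strongly up-regulated in the fracture callus. They are 5 of the 4736 genes that the array named with a single symbol, and each was measured by 1 probe set. The genes were selected on their measured rise from intact to fractured bone, so that rise is given below as a description and was not tested.

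The study asked how gene expression in the healing femur changes with age. Female Sprague-Dawley rats were fractured at 6 weeks of age (young), 26 weeks of age (adult) or 52 weeks of age (older), with the femur stabilized by an intramedullary rod, and bone was collected at 3 days and at 1, 2, 4 and 6 weeks. Controls of each age had a sham operation without fracture and are called intact here. The study had 3 arrays for each age at each time, and the 18 arrays used here hold 1 of them. Each array held RNA pooled from 2 rats. The 3 ages therefore stood in as replicates of a time and the 6 times as replicates of an age, and p-values measure the spread between these arrays. The segment taken held callus, cortical bone and marrow, so fewer cells of a type and less RNA per cell cannot be told apart.

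Fracture callus is first a granulation tissue of inflammatory cells and fibroblasts, then a fibrous and cartilaginous bridge, and later woven bone that is remodelled. Cgref1 encodes a secreted protein with EF-hand calcium-binding motifs that was first found as a p53-responsive inhibitor of cell growth. Wfdc1, also called ps20, is a secreted protein with a WAP domain, the fold found in many protease inhibitors. Gpx7 is a peroxidase of the endoplasmic reticulum that passes oxidizing equivalents to protein disulfide isomerase. Crabp2 is a cytosolic protein that carries retinoic acid to its nuclear receptors, and Nupr1, also called p8, is a small chromatin-associated protein induced by many kinds of cell stress.

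The 250 bases upstream of the start site of 4 of these genes are shown because the genes rose together; they are from RefSeq on the GRCr8 rat assembly, 5′ to 3′ on the gene's strand, with capitals marking matches to short motifs. Wfdc1 is named only.
Cgref1, chr6:31151545-31151794, plus strand: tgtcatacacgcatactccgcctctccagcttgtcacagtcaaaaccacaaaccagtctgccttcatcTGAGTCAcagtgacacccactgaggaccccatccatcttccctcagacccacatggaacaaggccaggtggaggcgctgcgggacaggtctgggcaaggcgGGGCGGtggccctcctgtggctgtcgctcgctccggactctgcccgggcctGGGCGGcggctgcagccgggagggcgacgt
Gpx7, chr5:128381726-128381975, minus strand: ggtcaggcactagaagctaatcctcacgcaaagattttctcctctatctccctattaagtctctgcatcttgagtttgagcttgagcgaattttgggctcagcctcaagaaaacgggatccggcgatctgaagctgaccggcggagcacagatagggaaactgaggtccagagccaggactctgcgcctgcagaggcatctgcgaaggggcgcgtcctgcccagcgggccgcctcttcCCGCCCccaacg
Crabp2, chr2:175714612-175714861, plus strand: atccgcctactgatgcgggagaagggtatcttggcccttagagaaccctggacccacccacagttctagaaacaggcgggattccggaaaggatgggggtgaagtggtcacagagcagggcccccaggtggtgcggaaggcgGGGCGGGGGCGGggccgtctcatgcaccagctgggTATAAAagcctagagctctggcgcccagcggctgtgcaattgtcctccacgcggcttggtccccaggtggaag
Nupr1, chr1:190645902-190646151, minus strand: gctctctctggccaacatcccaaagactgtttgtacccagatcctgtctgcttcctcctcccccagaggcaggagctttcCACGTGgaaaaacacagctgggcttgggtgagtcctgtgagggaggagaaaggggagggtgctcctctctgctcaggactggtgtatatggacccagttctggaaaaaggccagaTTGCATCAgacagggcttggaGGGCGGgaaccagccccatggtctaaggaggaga

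The search covered both strands for the TATA-box TATAAA, the CCAAT box, the GC-box GGGCGG, the AP-1 type motif TGAGTCA, the cyclic AMP response element TGACGTCA, the ATF4 and C/EBP type motif TGATGNAA, the nuclear receptor motif AGGTCA and the E-box CACGTG. The GC-box was the motif that all 4 windows held, and 30.5% of the 33469 rat promoter windows of this length hold it. Cgref1 had it at -81 and at -30 relative to the start site, Crabp2 had adjacent copies at -108 and -102, Gpx7 had it on the opposite strand at -12, and Nupr1 had it at -34. The AP-1 type motif was found in Cgref1 at -182 (4.05% of all windows), and the TATA-box in Crabp2 at -73 (12.9%). Nupr1 held the E-box at -170 (5.59%) and the ATF4 and C/EBP type motif on the opposite strand at -55 (3.4%). No window of the 4 held the CCAAT box (34% of all windows), the nuclear receptor motif (14.1%) or the cyclic AMP response element (1.59%). These matches are letters in a window and not measured binding sites.

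Signals are on the scale of the deposited files, where the trimmed mean of each array is close to 500, and signals below 20 were set to 20 before log2 values were taken. Between 12.2% and 20.1% of probe sets on an array were below that floor. The young intact array stood apart for these genes. It was at least 4-fold above both other intact arrays for 63 of 8740 probe sets (0.721%), and 4 of the 5 genes were among them, Crabp2 being the exception. The intact arrays entered the rise by which the genes were chosen, so this share is a description only. The summed signal of the young intact array over 12 measured genes of fibrous matrix was 40804.4, against 14194.1 in the adult and 8615.4 in the older intact array and 52522.7 to 88147.4 in the fractured arrays. Its summed signal over 10 bone matrix and osteoblast genes was 98027.2, against 42265.5 and 26191.1. The part of these matrix signals in the results below was not tested.

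Cgref1 mRNA was abundant in callus at all ages. In intact bone its signal was 343.7 in young rats, 20 in adult rats and 9.1 in older rats. At 3 days it was 1700.6, 2145.6 and 1900.8, and at 1 week 850.1, 1077.9 and 985.5. At 2 weeks the signals were 1832.1, 1353.9 and 1171.9. All of these fractured arrays were above all intact arrays. At 4 weeks the signals were 806.0, 762.8 and 794.6, and at 6 weeks 329.2, 732.5 and 745.5. Only the young array at 6 weeks lay back inside the range of the intact arrays, so that 14 of 15 fractured arrays exceeded the highest intact array. On the log2 scale the mean rise over the 5 times was 4.32 ± 2.50 (SD, n = 3 ages), a 20-fold increase. The rise was 55.9-fold in adult, 52.7-fold in older and 2.71-fold in young rats, and the first 2 of these are against an intact value at the floor. At 3 days Cgref1 had the third largest rise of the 8740 probe sets, 37.0-fold (log2 5.21 ± 2.51, SD, n = 3 ages), and at 6 weeks the sixth largest, 10.9-fold.

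Wfdc1 rose more slowly and stayed up. Its intact signal was 267.2 (young), 15 (adult) and 22.4 (older). At 3 days it was 402.1, 201.6 and 210.4, and at 1 week 417.0, 448.2 and 457.5. The adult and older arrays at 3 days were below the young intact array. At 2 weeks the signals were 527.5, 567.1 and 696.3, at 4 weeks 338.2, 615.8 and 656.9, and at 6 weeks 374.5, 386.5 and 656.3. These late signals were above every intact array, and 13 of 15 fractured arrays were in all. The mean rise was 3.15 ± 2.20 on the log2 scale (SD, n = 3 ages), or 8.85-fold. It was 20.7-fold in adult, 22.0-fold in older and 1.52-fold in young rats, the adult value being against the floor. In rank the rise was 209th of 8740 probe sets at 3 days and 13th at 6 weeks.

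Gpx7 was high at 3 days and lower by 6 weeks, like Cgref1. Between 1 and 2 weeks, however, Gpx7 fell at all 3 ages, whereas Cgref1 rose at all 3. The intact signal of Gpx7 was 329.8 (young), 31.2 (adult) and 26.0 (older), and its 3-day signal was 1576.4, 1298.0 and 1535.9. At 1 week the signals were 858.4, 1118.3 and 1268.9, and at 2 weeks 637.3, 1076.3 and 1134.6. The peak was at 3 days at all 3 ages. At 4 weeks the signals were 656.7, 631.9 and 791.5, and at 6 weeks 320.6, 493.4 and 523.2. The young array at 6 weeks was just below the young intact array, and the other 14 fractured arrays were above all intact arrays. The mean rise was 3.71 ± 2.27 on the log2 scale (SD, n = 3 ages), or 13.1-fold. It was 27.8-fold in adult, 37.8-fold in older and 2.16-fold in young rats. The rise ranked 10th at 3 days (22.7-fold) and 29th at 6 weeks (6.76-fold).

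Crabp2 was the one gene of the 5 that was low in intact bone at all ages, with signals of 21.1 (young), 34.9 (adult) and 17.0 (older). At 3 days the ages were close together, at 521.9, 536.2 and 573.1. At 1 week they had separated, at 268.7, 725.9 and 968.0. The young rats were already falling while the adult and older rats were at their peak. At 2 weeks the signals were 209.0, 279.2 and 510.6, at 4 weeks 89.9, 180.6 and 308.2, and at 6 weeks 36.4, 156.5 and 238.1. The order young, adult, older held at each time after fracture, and all 15 fractured arrays were above all intact arrays. The mean rise was 3.53 ± 0.87 on the log2 scale (SD, n = 3 ages), or 11.6-fold. By age it was 7.45-fold (young), 9.01-fold (adult) and 23.0-fold (older), the last against the floor. The rise ranked 11th at 3 days (22.2-fold) and 79th at 6 weeks (4.52-fold).

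Nupr1 rose to a plateau. Its intact signal was 314.9 (young), 49.1 (adult) and 46.4 (older). At 3 days it was 827.8, 469.4 and 583.4, and at 1 week 837.2, 1114.1 and 1155.0. Every fractured array was above every intact array. At 2 weeks the signals were 885.8, 1174.4 and 1239.5, at 4 weeks 682.5, 1138.5 and 1623.3, and at 6 weeks 515.6, 1011.0 and 1398.3. From 1 week on the order was young, adult, older at each time, whereas at 3 days young rats had the highest signal. The mean rise was 3.36 ± 1.86 on the log2 scale (SD, n = 3 ages), or 10.3-fold, and by age it was 2.34-fold (young), 19.0-fold (adult) and 24.5-fold (older). The rise ranked 113th at 3 days and 8th at 6 weeks. Without the young rats the mean log2 rise was 5.76 for Cgref1, 5.02 for Gpx7, 4.42 for Wfdc1, 4.43 for Nupr1 and 3.85 for Crabp2. Across all probe sets, 18.8% were higher and 21.1% lower in fractured than in intact bone, with a median log2 change of -0.051.

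**Figure D1:**
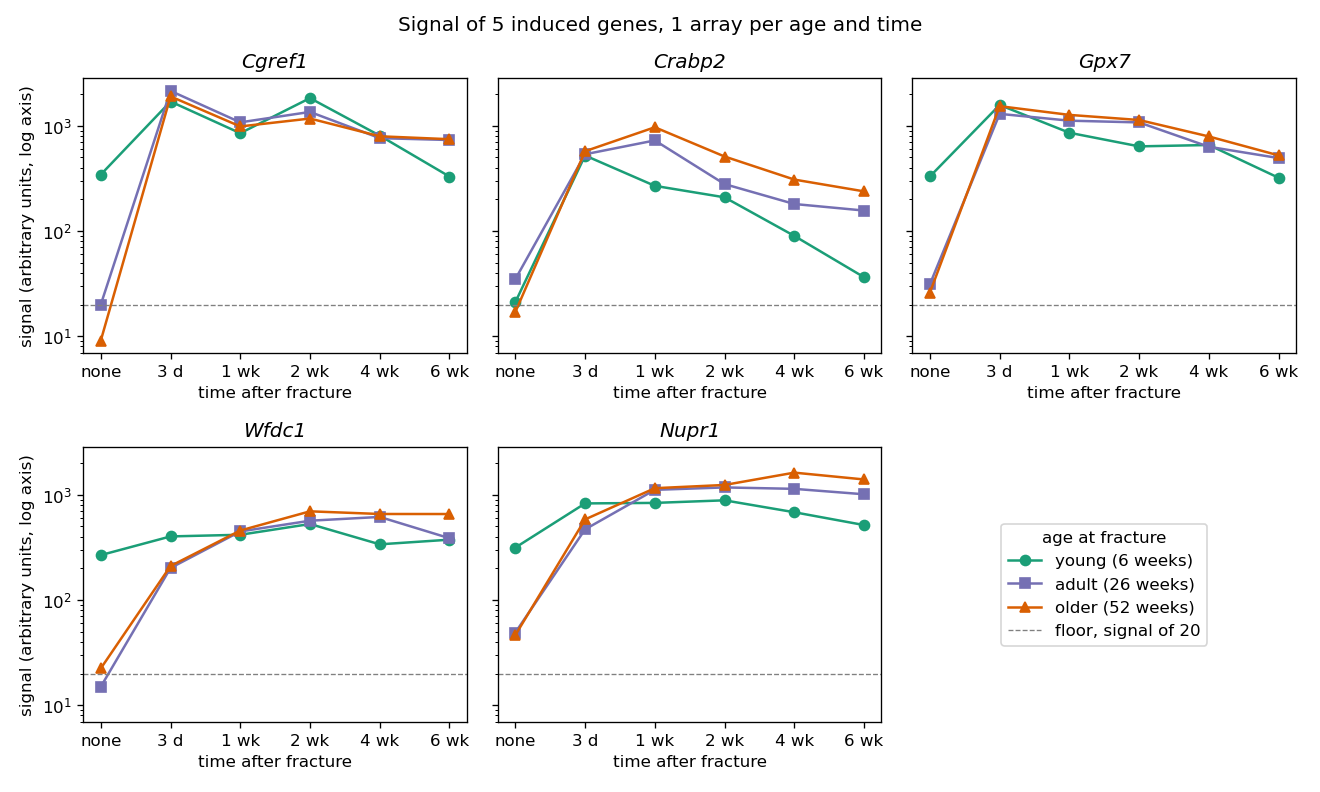
Signal of each gene (arbitrary units, log axis) at each time after fracture, with 1 point per array and 1 line per age, and the floor of 20 as a dashed line. In intact bone the young array lies far above the adult and older arrays for every gene but Crabp2, for which the ages separate after 3 days.

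The 5 genes had 2 kinds of time course. Cgref1, Gpx7 and Crabp2 were highest at 3 days to 2 weeks and then fell, with 6-week signals below the 3-day signals at every age. Wfdc1 and Nupr1 were highest at 2 to 4 weeks, and in adult and older rats their 6-week signals were above their 3-day signals. Over the 15 fractured arrays, which share times and pooled RNA and are not independent points, log2 signals of Wfdc1 and Nupr1 had a Pearson r of 0.872 and a Spearman rho of 0.925. Cgref1 with Gpx7 had r = 0.797 and rho = 0.814, and Gpx7 with Crabp2 r = 0.883 and rho = 0.864. Cgref1 with Crabp2 was weaker, with r = 0.698 and rho = 0.643. The 2 kinds were read from these same arrays, so these values are no separate support for them. Between the kinds, r was -0.333 for Cgref1 with Wfdc1, -0.28 for Gpx7 with Wfdc1, -0.147 for Cgref1 with Nupr1, -0.059 for Crabp2 with Wfdc1, -0.016 for Gpx7 with Nupr1 and 0.27 for Crabp2 with Nupr1. Over all 18 arrays, the intact arrays included, the same 6 pairs had r between 0.589 and 0.879.

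**Figure D2:**
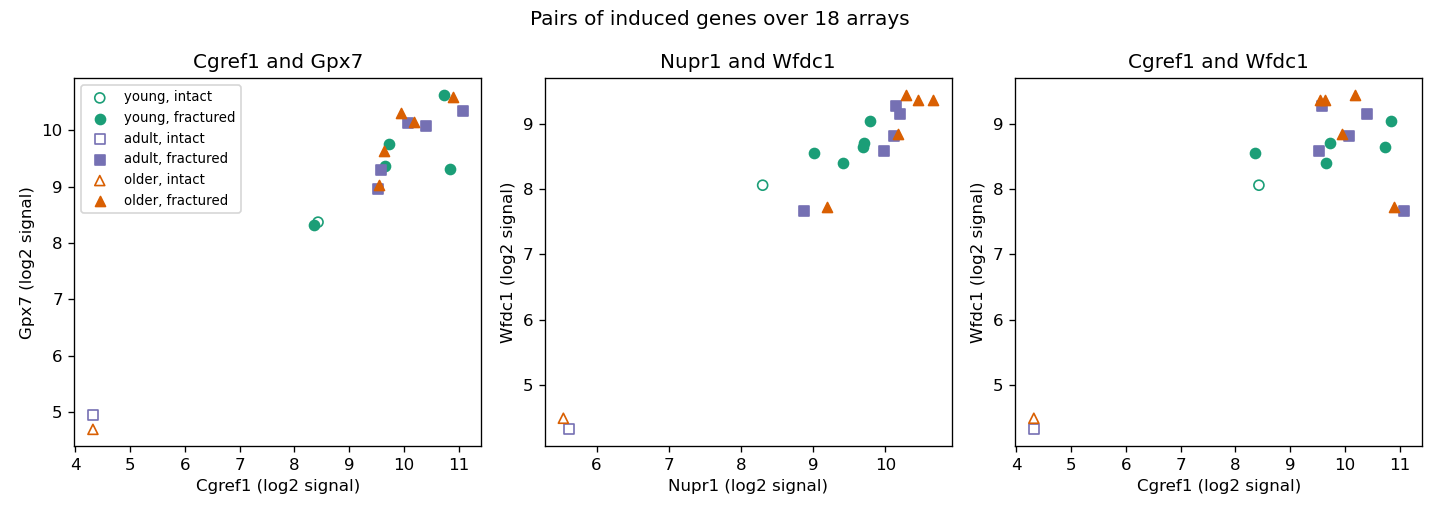
Log2 signals of 3 pairs of genes on the 18 arrays, with open symbols for intact and filled symbols for fractured bone and a colour and shape for each age. Cgref1 with Gpx7 and Nupr1 with Wfdc1 line up among the fractured arrays (r = 0.797 and 0.872), whereas Cgref1 with Wfdc1 does not (r = -0.333), and the adult and older intact arrays lie apart at the lower left in each panel.

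For each of the 5, the genes outside these 5 with the most similar log2 signal over the 18 arrays were listed. For Cgref1 they were Serpinh1 (r = 0.987), the collagen chaperone, Lox (r = 0.985), which cross-links collagen, Ggcx (r = 0.977), Col5a1 (r = 0.974) and Mmp23 (r = 0.973). For Gpx7 they were Lox (r = 0.981), Myl6b (r = 0.979), Thy1 (r = 0.977), Col5a1 (r = 0.972) and Serpinh1 (r = 0.969). In the 15 fractured arrays alone, r with Cgref1 ran from 0.778 (Col5a1) to 0.946 (Ggcx). With Gpx7 it ran from 0.739 (Serpinh1) to 0.934 (Myl6b).

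For Crabp2 the list was Acta2 (r = 0.971), smooth muscle actin, Pmepa1 (r = 0.969), Fzd2 (r = 0.967), a Wnt receptor, Cavin3 (r = 0.963) and Tagln (r = 0.961), transgelin. Their r among the fractured arrays alone was between 0.924 and 0.945. Wfdc1 was nearest to Nupr1 itself, first of 4735 genes (r = 0.976 over 18 arrays), followed by Sparc (r = 0.940), Sptan1 (r = 0.939), Dcn (r = 0.933), Spp1 (r = 0.931) and Fstl1 (r = 0.930). Beside Wfdc1, those nearest to Nupr1 were Fn1 (r = 0.956), fibronectin, Fstl1 (r = 0.955), Sptan1 (r = 0.954), Mmp2 (r = 0.946) and Slc29a1 (r = 0.945). Among the fractured arrays alone the listed neighbours of Wfdc1 had r between 0.395 and 0.523, and those of Nupr1 had r = 0.867 (Fn1), 0.559 (Fstl1), 0.566 (Sptan1), 0.607 (Mmp2) and 0.799 (Slc29a1).

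Ages were compared with limma across 8740 probe sets. The intact arrays entered the rise by which the genes were chosen, and they are part of the comparisons over all 6 times. Those comparisons are therefore not independent of the choice. Averaged over all 6 times, Crabp2 was the gene with the largest difference. Its log2 signal was higher in older than in young rats by 1.28 (SE 0.33, 95% CI 0.56 to 2.00, 5 of 6 times), with an adjusted p of 0.119. None of the 5 genes was called in that comparison, in which 0.446% of all probe sets were called, and adjusted p was at least 0.767 for the other 4. In adult against young rats Crabp2 was higher by 0.95 on the log2 scale at 6 of 6 times (adjusted p = 0.387), where 0.0801% of probe sets were called and again none of the 5.

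Among the 15 fractured arrays alone, which leave out the young intact array, Crabp2 was higher in older rats by 1.55 (SE 0.32, 95% CI 0.83 to 2.27), or 2.93-fold, at 5 of 5 times. Its adjusted p was 0.0644 in a comparison that called 0.343% of probe sets. An exact two-sided sign-flip permutation test over the 5 times gave p = 0.0625, the smallest it can give. In the same comparison Nupr1 was higher by 0.63 (95% CI 0.04 to 1.22, adjusted p = 0.265) and Gpx7 by 0.47 (95% CI 0.15 to 0.79, adjusted p = 0.143). The differences for Wfdc1 (0.27, 95% CI -0.31 to 0.86) and Cgref1 (0.18, 95% CI -0.32 to 0.68) had intervals that included 0.

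At 1 and 2 weeks no probe set was called between older and young rats (0.0% of 8740), although 977 had an unadjusted p under 0.05. Crabp2 was higher in older rats there by 1.57 (adjusted p = 0.265), Gpx7 by 0.70 (adjusted p = 0.31) and Nupr1 by 0.47 (adjusted p = 0.142). The difference was 0.27 for Wfdc1 (adjusted p = 0.751) and -0.22 for Cgref1 (adjusted p = 0.976).

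At 4 and 6 weeks Nupr1 was higher in older than in young rats. The signals were 1623.3 against 682.5 at 4 weeks and 1398.3 against 515.6 at 6 weeks, a log2 difference of 1.34 (SE 0.07, 95% CI 1.17 to 1.52), or 2.54-fold, with a limma adjusted p of 0.015. In that comparison 1.24% of all probe sets were called, and Nupr1 was the 1 gene of the 5. Crabp2 had the larger difference, 2.24 (SE 0.36, 95% CI 1.30 to 3.19) or 4.74-fold, with an adjusted p of 0.0685. The differences were 0.88 for Wfdc1 (adjusted p = 0.12), 0.58 for Cgref1 (adjusted p = 0.447) and 0.49 for Gpx7 (adjusted p = 0.226). The spread behind these intervals comes from how alike the age differences were within 1 and 2 weeks and within 4 and 6 weeks. It holds no spread between rats of the same age and time. The Nupr1 call was lost when the 3′/5′ ratio of the actin control, which was 2.72 in the young and 1.89 in the older array at 6 weeks, was a covariate (log2 difference 1.255, adjusted p = 0.235), and when 3 days was pooled with 1 and 2 weeks (1.345, adjusted p = 0.0624), while the difference itself stayed about as large.

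Summed marker signals are given for these times in young and older rats. Summed signal over 4 neutrophil genes was 15265.2 in young and 3443.7 in older rats at 4 weeks, and 30533.8 and 5419.0 at 6 weeks, with 0 of the 4 called. Summed signal over 8 smooth muscle and myofibroblast genes went the other way, at 15294.7 and 25640.5 at 4 weeks and 15350.1 and 26424.5 at 6 weeks, and 3 of the 8 were called higher in older rats (Acta2, Tagln and Myh11). Over 8 cartilage genes the sums were 6789.7 and 8371.3 at 4 weeks and 2752.8 and 11339.8 at 6 weeks, and 1 of the 8 was called, Comp (2.76, limma adjusted p = 0.0393), which encodes a cartilage matrix protein. Fibrous matrix genes summed to 62467.3 and 70501.4 at 4 weeks and to 52522.7 and 65707.1 at 6 weeks. Bone matrix and osteoblast genes summed to 121021.5 and 98153.9 at 4 weeks and to 117386.6 and 81968.9 at 6 weeks. For skeletal muscle the sums were 132640.9 and 137735.2, then 160890.3 and 111328.9. Macrophage genes gave 10870.1 and 10517.7, then 10187.3 and 15634.9. Endothelial genes gave 1088.7 and 1028.6, then 1121.1 and 1169.3. No gene of these last lists was called. Over 7 erythroid genes the sums were 48571.4 and 33619.6 at 4 weeks and 57526.8 and 27760.1 at 6 weeks, with 0 of the 7 called. The part of these markers in the Nupr1 and Crabp2 differences was not tested.

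**Figure D3:**
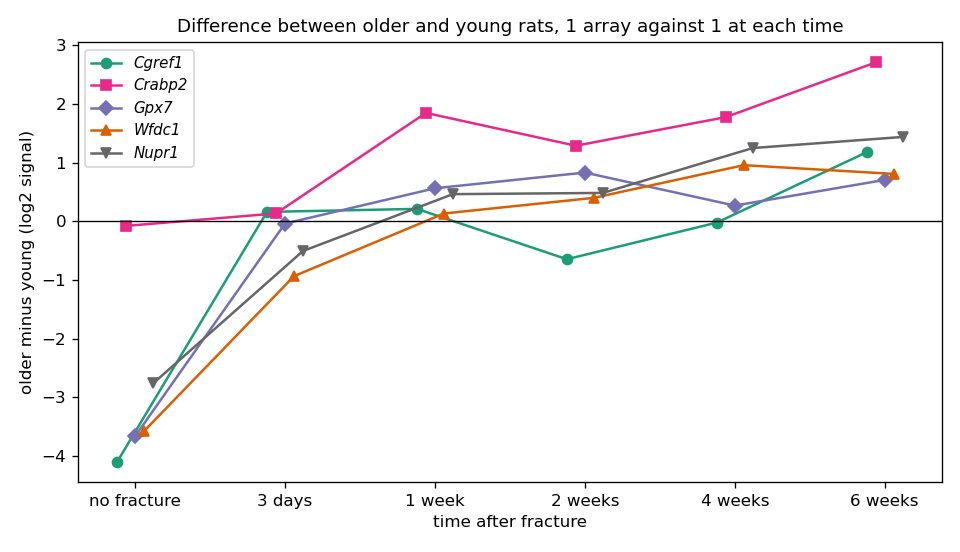
Difference in log2 signal between the older and the young array for each gene at each time, with points shifted sideways for legibility and the line at 0 marking equal signal. All but Crabp2 are far below 0 in intact bone, and Crabp2 and Nupr1 are the highest at 4 and 6 weeks.

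The size of the rise from intact to fractured bone depended on the 1 intact array of each age, which also entered the rise that the genes were chosen by. The values by age are therefore a description, and no test of them is given for the 5 genes. The older rise exceeded the young rise by 4.28 on the log2 scale for Cgref1, by 4.13 for Gpx7, by 3.85 for Wfdc1, by 3.39 for Nupr1 and by 1.63 for Crabp2. The difference lay mainly in the intact arrays. There the young signal was 17.2-fold above the older one for Cgref1, 12.7-fold for Gpx7, 11.9-fold for Wfdc1 and 6.79-fold for Nupr1, but 1.05-fold for Crabp2. With a floor of 100 in place of 20 the difference in rise was 1.96 for Cgref1, 2.19 for Gpx7, 1.69 for Wfdc1 and 2.28 for Nupr1.

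The interaction term for this difference, whose spread comes from the fractured times alone, passed the threshold for 3.2% of all probe sets. Of the 189 among them with a larger rise in older rats, 36 had a young intact signal at least 4-fold above both other intact signals. Among the marker lists it passed for 10 of 12 fibrous matrix, 4 of 10 bone and 2 of 8 cartilage genes, and for no gene of the other marker lists.

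Lists of genes from related families and pathways were then examined in fractured against intact bone, where 18.8% of all probe sets rose and 21.1% fell. Among EF-hand genes of the secretory pathway, to which Cgref1 is related, 5 of 9 measured genes rose and none fell (median log2 change 0.78). They included Rcn3 (2.50), an endoplasmic reticulum calcium-binding protein, and Fstl1 (1.75) and Sparc (1.64), which are secreted. The older minus young difference in rise was 2.13 for Sparc, 1.36 for Fstl1 and 1.92 for Rcn3, each against 1 intact array per age. The 3 intact signals of Sparc were 2140.7, 3661.2 and 10185.4. Of 8 measured p53 target genes, 2 rose and 2 fell (median -0.04), close to the 18.8% and 21.1% of all probe sets. Those that rose were Igfbp3 (1.03) and Cdkn1a (0.84), the cell cycle inhibitor p21, whereas Pcna, the replication clamp, fell by 1.44 and Btg1 fell by 0.35.

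Among genes for WAP domain proteins and secreted serine protease inhibitors, 4 of 10 rose and none fell (median 0.16), against 18.8% and 21.1% of all probe sets. The 4 were Serpina3n, Serpine2, Serping1 and Tfpi, which are not WAP domain genes. Wap, the WAP domain gene measured, was near the floor, at 16.3 to 34.8 in intact and 12.2 to 69.5 in fractured bone. Its log2 change was 0.30 and it was not called (limma adjusted p = 0.517). The 2 with the largest rise were Serpine2 (3.39), protease nexin, and Serping1 (2.05), the inhibitor of complement C1.

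Of 18 measured genes for peroxidases and for glutathione and thioredoxin metabolism, 2 rose and 7 fell (median -0.21), against 18.8% and 21.1% of all probe sets. The other 9 were not called. This list is wider than the glutathione peroxidase family of Gpx7, in which Gpx3 rose, Gpx1 fell and the other measured genes were not called. Gpx3, the secreted plasma form, rose by 1.20 and Prdx1 by 0.54. Catalase, Cat, fell by 2.09 (SE 0.19, limma adjusted p = 3.31e-05), Gclm fell by 1.74, and Gpx1, the abundant cytosolic form, fell by 0.87. Gpx4 had a log2 change of -0.34 and was not called (adjusted p = 0.143). Gpx2, Gpx5 and Gpx6 were at or near the floor, with signals of 49.6 or less on every array. Of 13 measured protein disulfide isomerase and chaperone genes of the endoplasmic reticulum, 8 rose and 2 fell (median 0.59). Serpinh1 rose by 3.24 and Ppib by 1.49, whereas Ero1b fell by 0.59 and Hsp90b1 fell by 0.37. The intact signals of Serpinh1 were 459.7, 529.2 and 3947.3, and its rise was larger in older than in young rats by 3.10, again against 1 intact array per age.

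Of 19 measured retinoid genes, the pathway of Crabp2, 2 rose and 3 fell (median -0.02), which are smaller shares than the 18.8% and 21.1% of all probe sets. Fabp5, a fatty acid binding protein that can also bind retinoic acid, rose by 1.71 and Aldh1a2, an enzyme that makes retinoic acid, by 0.97. Aldh1a1 fell by 0.89, the receptor Rarb fell by 0.84 and the receptor Rxrg fell by 0.74. Aldh1a2 and Rarb were near the floor. Signals of Aldh1a2 were 10.2 to 16.8 in intact and 7.8 to 88.7 in fractured bone, and those of Rarb 36.0 to 53.8 and 16.0 to 32.1. Crabp1, the close relative of Crabp2, had signals of 77.9 to 287.5 in intact and 95.1 to 840.5 in fractured bone. Its log2 change was 0.63 (SE 0.27, limma adjusted p = 0.0906), and its rise in older rats exceeded that in young rats by 1.88, against 1 intact array per age.

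Of 15 measured integrated stress response genes, the pathway in which Nupr1 is a known target, 1 rose and 5 fell (median -0.31). Of all probe sets, 18.8% rose and 21.1% fell. The one that rose was Atf3 (0.96), a stress-induced transcription factor. Ppp1r15a, which encodes a phosphatase subunit of this pathway, fell by 1.59 and Asns, asparagine synthetase, fell by 1.41.

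**Figure D4:**
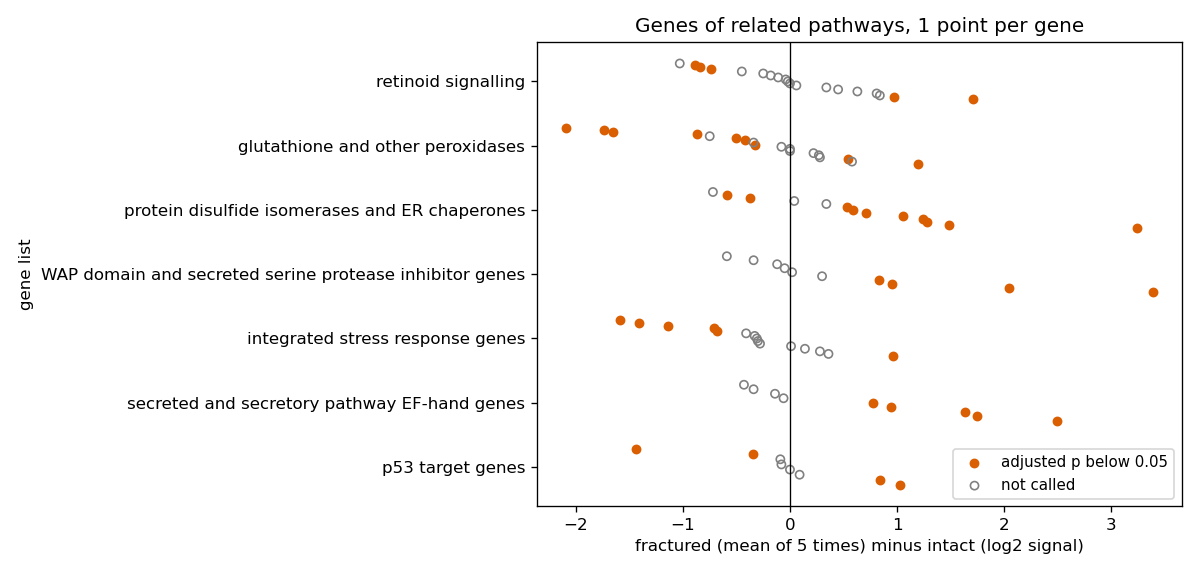
Log2 change of each measured gene of 7 lists, fractured (mean of the 5 times) minus intact, with filled points for genes called by limma and open points for the rest. Serpinh1 (3.24) and Serpine2 (3.39) lie farthest to the right and Cat (-2.09) farthest to the left.

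Among the markers, fractured bone had higher signal for 11 of 12 fibrous matrix, 9 of 10 bone, 6 of 8 cartilage, 5 of 8 smooth muscle, 3 of 4 macrophage and 1 of 5 endothelial genes. It had lower signal for 4 of 4 neutrophil, 6 of 7 erythroid, 12 of 14 skeletal muscle, 1 of 4 macrophage and 1 of 5 endothelial genes. Of all probe sets, 18.8% were higher and 21.1% lower. Skeletal muscle genes summed to between 34694.9 and 164483.3 on every array, although the labels name bone. The part of these cell types in the rise of the 5 genes was not tested.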

How the data were processed

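Total RNA from femur segments was hybridized to Affymetrix rat arrays with RNA of 2 rats each, and 1 array per age and time was used here. The authors scanned the arrays and computed a signal per probe set with Microarray Suite 5.0, scaled to a target of 500, and the deposited values are these intensity values on a linear scale. No read depth applies, and the number of arrays limits the precision.

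Of 8799 probe sets, 59 controls were left out and 8740 were tested. A single gene symbol was given for 7006 of these, several for 308 and none for 1426, and no gene was named from a probe set with several. Signals were floored at 20, log2 transformed and fitted with limma 3.58.1 (R 4.3.3; eBayes with trend), with no further normalization and Benjamini-Hochberg adjustment over all probe sets, called at an adjusted p below 0.05. Time and age were additive, age was nested in phases for 1 and 2 weeks and 4 and 6 weeks, and an age by fracture term tested the difference in rise. Residual degrees of freedom were 10, 4 and 8. The code was tested on simulated data. For each of the 5 genes, the 5 genes with the highest Pearson r over 18 arrays were named, after the 5 genes themselves were left out. From each pathway list up to 2 highest and 2 lowest called genes were named, with genes called in an age comparison and relatives of Crabp2 and Gpx7; Rxrg, Comp and the called smooth muscle genes were named after their values were seen. The genes and lists were chosen with earlier results of these data known. Alternatives were other scalings, floors, filters, covariates and left-out arrays.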

Additional observations from a re-analysis of the deposited data

Results flagged for a closer look

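The rise after fracture was larger in older than in young rats by 4.28 for Cgref1, 4.13 for Gpx7, 3.85 for Wfdc1 and 3.39 for Nupr1 on the log2 scale. These differences between the ages are listed as a description, with no test. Each difference rests on 1 intact array per age and on the rise by which the genes were chosen, so it is no independent support. The young intact array was 17.2-fold, 12.7-fold, 11.9-fold and 6.79-fold above the older one for these genes.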

How the results depend on the processing

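Calls between older and young rats over all times numbered 39 (18 of them higher in older rats). They were 64 with median centring (44 higher), 8 with a floor of 100, 76 with log2(signal + 50), 135 among probe sets with a mean signal of 200 or more, 4 with the actin ratio as a covariate, and 2 to 30 with a time left out. The methods' t-test gave 76 at 0.005, a threshold that the methods state for their comparison of single arrays and not for the t-test, and 0 after Benjamini-Hochberg adjustment. For adult against young the 7 calls became 2 with quantile normalization, 0 with a floor of 100, 3 with the actin covariate, 12 in the 15 fractured arrays and 0 to 12 with a time left out. At 1 and 2 weeks the 0 calls became 2 with quantile normalization, 5 with median centring, 7 with a floor of 100, 24 with log2(signal + 50), 86 with the filter and 28 to 51 with a time left out. At 4 and 6 weeks the 108 calls (38 higher) became 210 with median centring (130 higher), 296 with log2(signal + 50), 415 with the filter, 1 with the actin covariate, 219 with 3 phases and 168 to 328 with a time left out. For the difference in rise the 280 calls (189 higher) became 129 with log2(signal + 50) and 149 to 354 with a time left out, and the split was 113 higher of 215 with median centring and 158 of 272 with quantile normalization. For fractured against intact bone the 3485 calls became 2295 with the filter, 1172 with the actin covariate and 1460 to 3181 with an age left out. The filter and the left-out arrays change what is tested. With a time left out, the comparisons at 1 and 2 weeks and at 4 and 6 weeks set 1 older against 1 young array. Counts from those fits are not like for like with the main counts. The cause of the changes was not tested.

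The uncalled age differences of some genes turned direction. For older against young over all times these were Gpx7 with a floor of 100 (0.10), Nupr1 with the actin covariate (-0.025) and, in the 15 fractured arrays, Cgref1 (0.18), Gpx7 (0.47) and Wfdc1 (0.27). For adult against young they were Nupr1 with a floor of 100 (0.009) and, in the 15 fractured arrays, Cgref1 (0.26), Gpx7 (0.285), Wfdc1 (0.025) and Nupr1 (0.34). With each time left out in turn, the older minus young difference ranged from -0.879 to 0.178 for Cgref1, from -0.433 to 0.467 for Gpx7, from -0.633 to 0.273 for Wfdc1 and from -0.214 to 0.627 for Nupr1. The adult minus young difference ranged from -0.788 to 0.263, from -0.547 to 0.285, from -0.896 to 0.025 and from -0.388 to 0.342 for the same genes. For Cgref1 the difference ranged from -0.645 to 0.213 at 1 and 2 weeks and from -0.021 to 1.179 at 4 and 6 weeks. At 4 and 6 weeks Crabp2 was called with median centring (2.37, adjusted p = 0.0347), with log2(signal + 50) (1.55, adjusted p = 0.0283) and with the filter (adjusted p = 0.00857), which also called Wfdc1 (adjusted p = 0.041). The filter called Crabp2 over all times (adjusted p = 0.0369) and at 1 and 2 weeks (adjusted p = 0.048). The described difference in rise was 3.68 to 4.15 for Wfdc1 and 3.19 to 3.67 for Nupr1 with a time left out, against 3.85 and 3.39. The described rise of Crabp2 was 1.61 with a floor of 100 and 2.25 with log2(signal + 50), against 3.53. Signals near the floor in intact bone limit the size of every fold against it.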
